A study of Mus musculus with 12 samples.

Results

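The interferon-inducible p200 genes stand side by side on mouse chromosome 1 and encode proteins that bind DNA. The 7 genes examined here were Ifi202b, Ifi203, Ifi204, Ifi205, Ifi211, Mndal and Aim2. Every probe set whose symbol is, or includes, 1 of these 7 genes was taken, which gave 12 of the 45037 probe sets tested on the array. Of the 12 probe sets, 6 carry 1 gene symbol and 6 carry several, and close relatives in the cluster share sequence. The 7 genes were chosen by their measured log2 values over the 6 groups of strain and state, and which of the comparisons decided the choice is not recorded. All values of the members are therefore given as a description, with their errors and without a test.

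Whole neural retina of male mice was profiled on 12 Affymetrix mouse arrays (MG430_2 in the labels) in 6 groups of 2. The strains were 129X1/SvJJmsSlc (129) and C57BL/6NCrSlc (B6), both at 10 weeks of age. Each strain gave normal retina, taken directly from the eye, and explants cultured for 3 days in vitro (3DIV). The explants received either vehicle (3DIV) or the GSK3 inhibitor CHIR99021, for which the labels give 15 µM (3DIV with GSK3 inhibitor). An explant is a retina cut off from its blood supply and its optic nerve, in which photoreceptors die, and it keeps the microglia that it held when it was taken. Both arrays of a group are labelled as biological replicates. Since the sources do not say whether they came from separate animals, the standard errors (SE) and p-values measure the spread between these arrays, which may be technical. Values are RMA intensities of a probe set on the log2 scale, where 1 unit is a 2-fold difference, and the median of an array lay between 6.10 and 6.14. Since whole tissue was measured, fewer cells of a type and less RNA per cell cannot be told apart.

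Proteins of the p200 family, also called HIN-200 or PYHIN, carry HIN domains that bind DNA, and most carry a pyrin domain that binds partner proteins. Aim2 is the sensor that joins cytosolic DNA to the adaptor Pycard and so to caspase-1 in the inflammasome. Ifi204 is often set beside human IFI16, which signals through STING to type I interferon, whereas Ifi202b has HIN domains but no pyrin domain and in mouse is known to counter Aim2. Most of these genes are induced by interferon and are best known from macrophages, which in the retina are represented by microglia.

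Interferon acts through short elements near the start of its target genes, so the promoters of the members are shown for the elements that they hold. RefSeq sequences of the build GRCm38.p6, running from 250 bases before to 50 bases after the start of a gene, were found for 6 of the 7 genes, all but Ifi204. An interferon-stimulated response element (ISRE), taken as 2 copies of GAAA with any 2 bases between them and searched on both strands, occurred in 1131 of all 32851 promoters (3.44%) and in the promoters of 9 of 12 genes of the p200 cluster. Among the members, Mndal, Ifi203, Ifi211 and Ifi205 had this match and Ifi202b and Aim2 had none in the window. The letters TTCNNNGAA of a GAS element, the site of STAT dimers, occurred in 2726 promoters (8.3%), and in the cluster in that of Ifi202b alone. The stretches below run from 5′ to 3′ on the minus strand, with the ISRE letters in capitals for the first 4 genes and the GAS letters in capitals for Ifi202b. They lie at chr1:173880188-173880258 for Mndal, chr1:173942493-173942562 for Ifi203, chr1:173913047-173913118 for Ifi211, chr1:174031845-174031924 for Ifi205 and chr1:173982845-173983094 for Ifi202b.
Mndal: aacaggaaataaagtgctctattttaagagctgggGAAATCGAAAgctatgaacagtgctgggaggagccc
Ifi203: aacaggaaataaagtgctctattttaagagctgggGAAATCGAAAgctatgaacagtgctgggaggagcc
Ifi211: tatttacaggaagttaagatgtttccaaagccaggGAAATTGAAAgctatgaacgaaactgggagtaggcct
Ifi205: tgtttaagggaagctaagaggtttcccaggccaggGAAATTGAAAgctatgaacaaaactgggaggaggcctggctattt
Ifi202b: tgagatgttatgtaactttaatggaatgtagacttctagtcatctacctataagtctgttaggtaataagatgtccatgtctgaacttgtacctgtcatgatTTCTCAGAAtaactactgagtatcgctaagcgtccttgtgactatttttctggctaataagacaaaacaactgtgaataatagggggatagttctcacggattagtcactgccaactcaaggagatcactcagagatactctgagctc
The stretches of Ifi203 and Mndal were equal in 70 of 70 bases and those of Ifi205 and Ifi211 in 63 of 72, whereas the other pairs shared 58.6% to 62% of their bases. Counted from the start of the gene, the match began at -35, -36 and -37 in Ifi203, Mndal and Ifi211, and further upstream, at -134, in Ifi205. Ifi205 had a second match, on the other strand, at 23 bases past the start. For a second start of Mndal the match lay at -54 on the other strand, and the window of a second start of Ifi203 held none. A match in letters is a description and not a measured binding site. The reference genome is that of C57BL/6J, in which a deletion at the 5′ end of Ifi202b is known, so the window shown for this gene need not be the promoter used in 129 mice. Sequences of 129 were not analysed here.

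The arrays of a group correlated at r = 0.9965 to 0.9978 over all probe sets, and 5 to 85 probe sets differed by more than 2-fold between the 2 arrays. The largest of these counts belonged to 129 normal, where 6 lens genes summed to an intensity of 927 on array 1 and 25671 on array 2, against 160 to 230 on the other 10 arrays. Among the members, the widest gap between those 2 arrays was at 1452349_x_at, with 4.18 and 3.66. The part of lens tissue in any result was not tested. Markers of pigmented epithelium were mostly far higher in normal retina than in explants. Ttr lay between 11.72 and 13.14 on normal arrays and between 5.48 and 7.17 on explant arrays. The log2 difference of Rpe65, 3DIV minus normal, was -4.22 in 129 and -4.63 in B6, while that of Best1 was -0.18 and 0.07. Normal retina and explants thus differed in such RNA, and its part in the changes after damage was not tested. The 23 measured markers of microglia and macrophages, none of which was at 0, summed to 1808 and 1757 in 129 normal and to 2614 and 2464 in B6 normal. At 3DIV the sums were 4613 and 4434 in 129 and 10049 and 9297 in B6, and with the inhibitor they were 2801 and 2859 in 129 and 4524 and 4727 in B6. Of the 23 markers, 10 were lower in 129 than in B6 in normal retina, 18 at 3DIV and 14 with the inhibitor (limma, adjusted p under 0.05). Over all probe sets 5.45%, 8.57% and 4.88% were called lower in these states. The 1 marker that was higher in 129 was Cd14 at 3DIV (log2 difference 1.14, SE 0.10), beside 11.4% of all probe sets. P2ry12, Laptm5, Spi1 and Siglech passed the limit in none of the 3 states. Markers of T and B cells and of neutrophils varied less, with sums of 304 to 387 and of 154 to 180 over the 12 arrays.

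Ifi202b was the member with the widest difference. The probe set 1421551_s_at had 9.35 and 9.26 in 129 3DIV, against 3.87 and 4.21 in B6 3DIV. With the inhibitor it had 9.63 and 9.61 in 129 and 3.97 and 4.38 in B6. Normal retina of both strains lay low and overlapped, with 3.82 and 3.65 in 129 and 3.75 and 3.80 in B6. Thus the signal was high on the 4 arrays of 129 explants and low on the other 8. The second probe set, 1457666_s_at, which also matches LOC100044068, had 9.76 and 9.55 in 129 3DIV, against 3.01 and 2.68 in B6 3DIV. Its values in 129 normal were 2.74 and 2.94, and in B6 normal 2.64 and 2.52. At both probe sets, therefore, every array of 129 explants stood above every other array. The log2 difference at 3DIV, 129 minus B6, was 5.26 (SE 0.14) at 1421551_s_at and 6.81 (SE 0.12) at 1457666_s_at. The suffix _s_at means that the probes match several transcripts, and the part of strain polymorphisms under the probes was not tested.

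**Figure D1:**
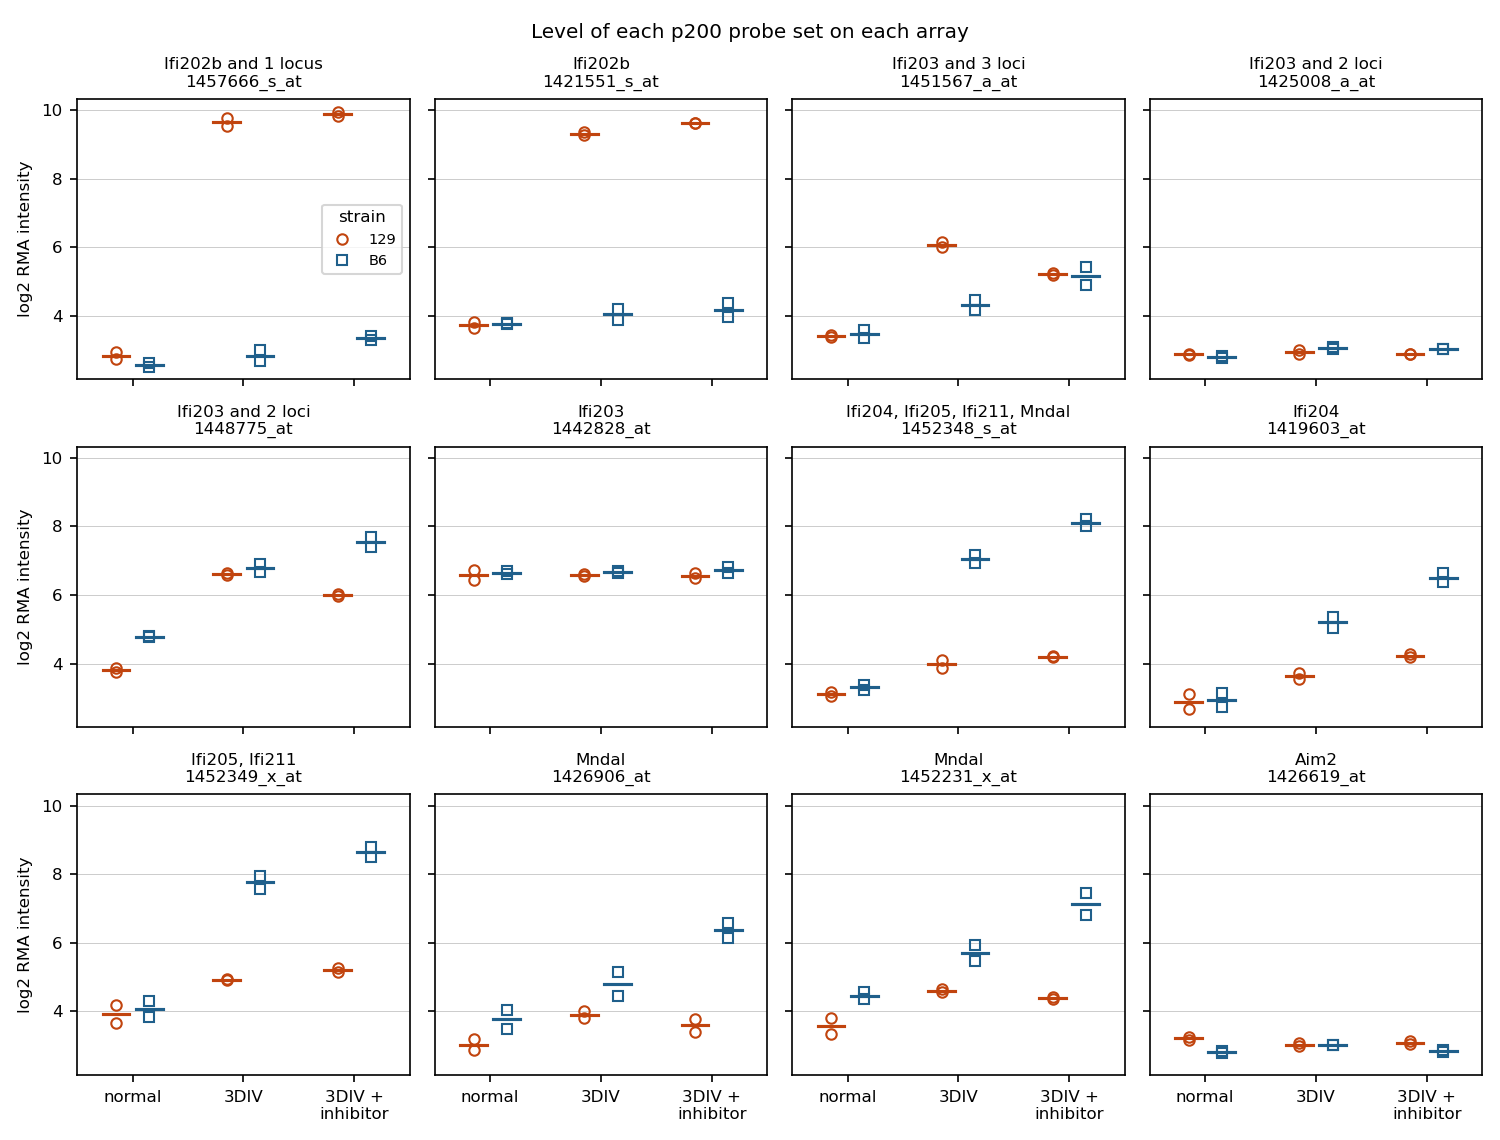
Log2 RMA intensity of the p200 probe sets on each of the 12 arrays, for normal retina, 3DIV and 3DIV with GSK3 inhibitor, with 129 left of B6. Each point is 1 array; Ifi202b stands between 9.26 and 9.95 on the 4 arrays of 129 explants at both of its probe sets, while Ifi204, Ifi205 and Ifi211 stand highest in B6 explants.

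Ifi204, Ifi205 and Ifi211 showed the opposite order of the strains. Ifi204 (1419603_at) had 3.71 and 3.55 in 129 3DIV, against 5.04 and 5.37 in B6 3DIV. In normal retina the strains overlapped, with 2.67 and 3.11 in 129 and 3.15 and 2.72 in B6. Ifi204 was thus low in normal retina of both strains, and at 3DIV its lowest B6 array stood above both 129 arrays. The probe set 1452349_x_at, shared by Ifi211 and Ifi205, had 4.91 and 4.94 in 129 3DIV, against 7.58 and 7.95 in B6 3DIV. Its values in normal retina were 4.18 and 3.66 in 129 and 4.31 and 3.85 in B6, which overlap. The suffix _x_at marks probes that may cross-hybridise, so this value cannot be divided between the 2 genes. The probe set 1452348_s_at, which matches Mndal, Ifi211, Ifi205 and Ifi204, had 3.89 and 4.09 in 129 3DIV, against 6.94 and 7.16 in B6 3DIV. In 129 normal it had 3.18 and 3.07, and in B6 normal 3.38 and 3.24. The log2 difference at 3DIV, 129 minus B6, was -1.57 (SE 0.18) for Ifi204, -2.84 (SE 0.19) for 1452349_x_at and -3.06 (SE 0.11) for 1452348_s_at. In these samples the summed microglial markers were also lower in 129 3DIV than in B6 3DIV, and their part in the differences was not tested. The part of strain polymorphisms under the probes was likewise not tested for these or any other members, in any state.

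Mndal, a relative of human MNDA, was lower in 129 in each state, but its arrays spread more widely. The probe set 1452231_x_at had 3.35 and 3.82 in 129 normal, against 4.36 and 4.57 in B6 normal. At 3DIV it had 4.56 and 4.66 in 129, against 5.48 and 5.95 in B6. The second probe set, 1426906_at, had 3.20 and 2.87 in 129 normal, against 4.05 and 3.50 in B6 normal. Its values at 3DIV were 4.0 and 3.80 in 129, against 4.46 and 5.15 in B6. The groups did not overlap in any of these comparisons, while the 2 arrays of B6 3DIV differed by more than those of 129 3DIV. The change after damage at 1452231_x_at, 3DIV minus normal, was a log2 difference of 1.02 in 129 and 1.25 in B6 (SE 0.22 each).

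Ifi203 had 4 probe sets, which differed from each other. At 1451567_a_at, which also matches Ifi203-ps and 2 further loci, the values were 6.14 and 6.00 in 129 3DIV, against 4.17 and 4.48 in B6 3DIV. In normal retina the strains were close, with 3.40 and 3.45 in 129 and 3.60 and 3.35 in B6. At 1448775_at, which also matches Ifi203-ps and LOC100862473, the values were 6.66 and 6.58 in 129 3DIV and 6.89 and 6.67 in B6 3DIV. This probe set differed in normal retina instead, with 3.76 and 3.88 in 129, against 4.77 and 4.80 in B6. The log2 difference at 3DIV, 129 minus B6, was 1.75 (SE 0.16) at 1451567_a_at and -0.17 (SE 0.10) at 1448775_at. The other probe sets changed little over the 12 arrays, 1442828_at lying between 6.44 and 6.80 and 1425008_a_at between 2.78 and 3.08. For Ifi203, therefore, the order of the strains depended on the probe set.

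Aim2 (1426619_at) was low in all groups. Its values were 3.17 and 3.25 in 129 normal, against 2.79 and 2.84 in B6 normal. At 3DIV they were 3.08 and 2.98 in 129 and 3.03 and 3.03 in B6. All 12 arrays thus lay between 2.79 and 3.25, and the deposited table holds no detection call that would tell a low level from background.

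Over the 12 probe sets, a limma fit to all 45037 probe sets called 3 different between the strains in normal retina, 1 higher and 2 lower in 129. Over all probe sets 11.5% were called there, 6.07% higher and 5.45% lower. At 3DIV it called 8, of which 3 were higher and 5 lower in 129, beside 20.0% of all probe sets, 11.4% higher and 8.57% lower. After damage 9 were higher in 129, beside 30.6% called, 14.7% higher and 15.9% lower. In B6 9 were also higher after damage, beside 31.5% called, 14.9% higher and 16.6% lower. The change after damage differed between the strains for 7, 4 of them more positive and 3 more negative in 129, beside 2.58% called, 1.55% more positive and 1.03% more negative. Since the genes were chosen with these values in view, nothing is read from the counts.

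With the GSK3 inhibitor the strains differed in the same directions as at 3DIV for Ifi202b, Ifi204, Ifi205, Ifi211 and Mndal. The limma fit called 8 of the 12 probe sets, 2 higher and 6 lower in 129, beside 10.9% of all probe sets, 6.01% higher and 4.88% lower, and nothing is read from these counts either. For Ifi202b the log2 difference, 129 minus B6, was 5.44 (SE 0.14) at 1421551_s_at and 6.53 (SE 0.12) at 1457666_s_at. The B6 arrays lay low at both, with 3.97 and 4.38 at 1421551_s_at and 3.42 and 3.30 at 1457666_s_at, where a low level cannot be told from background, so the differences are those of the array signal and no fold is given. Ifi204 had 4.27 and 4.20 in 129, against 6.38 and 6.63 in B6 (log2 difference -2.27, SE 0.18). The probe set of Ifi211 and Ifi205, 1452349_x_at, had 5.27 and 5.16 in 129, against 8.51 and 8.78 in B6 (-3.43, SE 0.19). At 1452348_s_at the values were 4.23 and 4.18 in 129, against 8.01 and 8.21 in B6 (-3.90, SE 0.11). In each of these comparisons the 2 arrays of 129 and the 2 arrays of B6 did not overlap.

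Mndal was also lower in 129 with the inhibitor. At 1452231_x_at it had 4.36 and 4.41 in 129, against 6.82 and 7.46 in B6 (log2 difference -2.75, SE 0.22). At 1426906_at it had 3.79 and 3.41 in 129, against 6.14 and 6.59 in B6 (-2.76, SE 0.25). Of the Ifi203 probe sets, 1448775_at was lower, with 6.04 and 5.96 in 129, against 7.41 and 7.68 in B6 (-1.54, SE 0.10). The groups did not overlap at these 3 probe sets. The probe set 1451567_a_at, by contrast, had 5.25 and 5.18 in 129 and 4.91 and 5.43 in B6, which overlap, and its difference of 0.05 had a 95% interval of -0.30 to 0.40. Aim2 had 3.13 and 3.05 in 129 and 2.83 and 2.87 in B6 (0.24, SE 0.07). At 1425008_a_at and 1442828_at the differences were -0.14 (SE 0.07) and -0.15 (SE 0.10). The summed microglial markers were lower in 129 here too, by the sums given above, and their part was not tested.

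**Figure D2:**
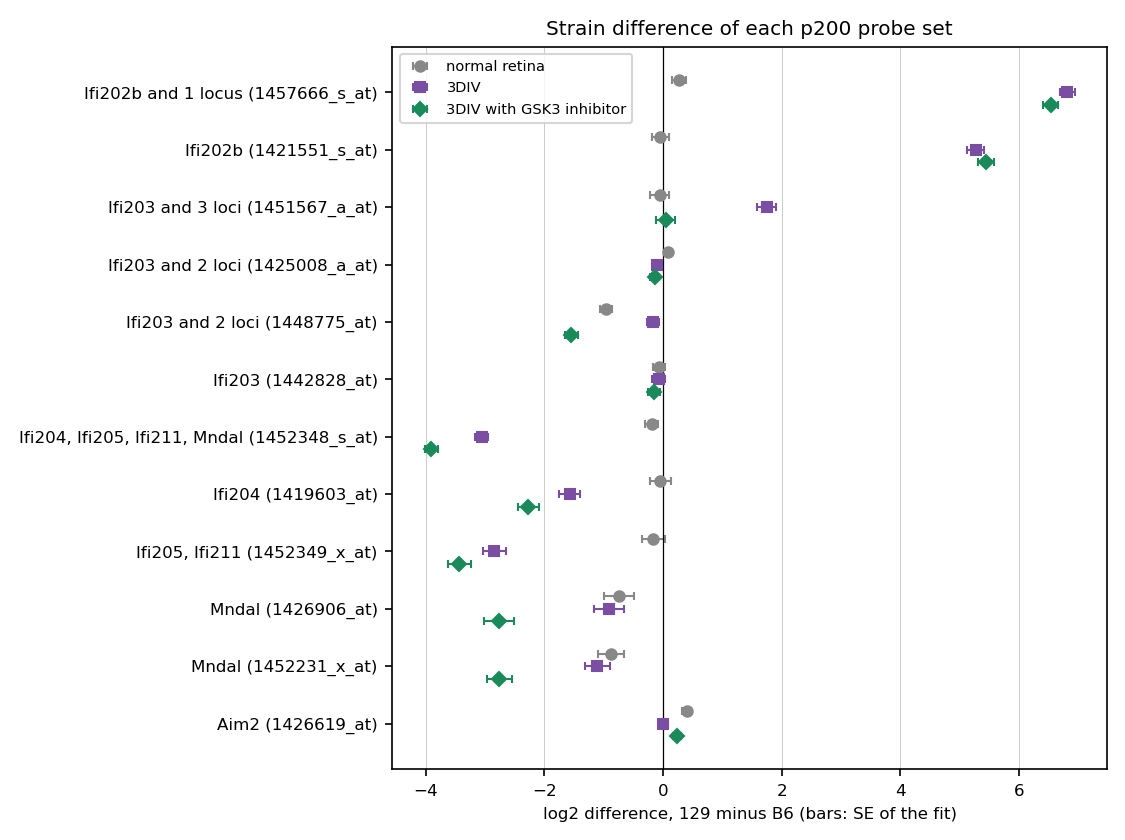
Log2 difference between the strains, 129 minus B6, for the 12 probe sets in normal retina, at 3DIV and at 3DIV with GSK3 inhibitor, with bars for the SE of the limma fit. With the inhibitor both Ifi202b probe sets lie at 5.44 and 6.53, and 6 probe sets, among them those of Ifi204, Mndal and Ifi205, lie between -3.90 and -1.54.

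The effect of the GSK3 inhibitor itself is the difference between explants with inhibitor and explants with vehicle. Its vehicle arrays are those of the strain difference at 3DIV and of the changes after damage. In B6, the fit called 8 of the 12 probe sets higher with the inhibitor and none lower, beside 18.6% of all probe sets, 9.42% higher and 9.18% lower, and nothing is read from the counts. Ifi204 in B6 had 6.38 and 6.63 with the inhibitor, against 5.04 and 5.37 with vehicle (log2 difference 1.30, SE 0.18). Mndal in B6 had 6.82 and 7.46 with the inhibitor, against 5.48 and 5.95 with vehicle, at 1452231_x_at (1.43, SE 0.22). At its other probe set, 1426906_at, it had 6.14 and 6.59 with the inhibitor, against 4.46 and 5.15 with vehicle (1.56, SE 0.25). All B6 arrays with inhibitor thus stood above both vehicle arrays for these genes.

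At 1452348_s_at, B6 explants had 8.01 and 8.21 with the inhibitor, against 6.94 and 7.16 with vehicle (log2 difference 1.06, SE 0.11). Ifi203 in B6 had 7.41 and 7.68 with the inhibitor, against 6.89 and 6.67 with vehicle, at 1448775_at (0.76, SE 0.10). At 1451567_a_at it had 4.91 and 5.43 with the inhibitor, against 4.17 and 4.48 with vehicle (0.84, SE 0.16). At these probe sets Ifi203 thus stood higher with the inhibitor in B6. At its other probe sets it changed little, with a difference of 0.05 at 1442828_at. At 1425008_a_at it had 3.03 and 3.04 with the inhibitor, against 3.08 and 3.03 with vehicle. Ifi211 and Ifi205 at 1452349_x_at had 8.51 and 8.78 with the inhibitor, against 7.58 and 7.95 with vehicle (0.88, SE 0.19). For Ifi202b in B6 the difference was 0.52 (SE 0.12) at 1457666_s_at and 0.14 (SE 0.14) at 1421551_s_at, at low values throughout. Of the microglial markers in B6, 17 of 23 were lower with the inhibitor and none was higher, with a median log2 difference of -0.99. Over all probe sets 9.18% were lower and 9.42% higher. The part of microglia in the values of the members was not tested.

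In 129, the fit called 3 of the 12 probe sets, 1 higher and 2 lower with the inhibitor, beside 12.2% of all probe sets, 5.87% higher and 6.38% lower. Ifi203 at 1451567_a_at had 5.25 and 5.18 with the inhibitor, against 6.14 and 6.00 with vehicle (log2 difference -0.86, SE 0.16). At 1448775_at it had 6.04 and 5.96 with the inhibitor, against 6.66 and 6.58 with vehicle (-0.61, SE 0.10). At these probe sets Ifi203 thus stood lower with the inhibitor in 129. At its other probe sets it changed little, with a difference of -0.03 at 1442828_at. At 1425008_a_at it had 2.89 and 2.89 with the inhibitor, against 3.02 and 2.90 with vehicle. Ifi204 in 129 had 4.27 and 4.20 with the inhibitor, against 3.71 and 3.55 with vehicle (0.60, SE 0.18). Its call was lost when any 1 of the 8 explant arrays was left out, and that of 1451567_a_at without 129 3DIV replicate 1, where 1 probe set of the 12 was called. Ifi202b stayed high in 129 with the inhibitor, and its differences from vehicle were 0.31 (95% interval 0.01 to 0.62) at 1421551_s_at and 0.24 (-0.03 to 0.51) at 1457666_s_at. Of the microglial markers in 129, 12 of 23 were lower with the inhibitor and 1, Cd68, was higher, and their part was not tested.

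**Figure D3:**
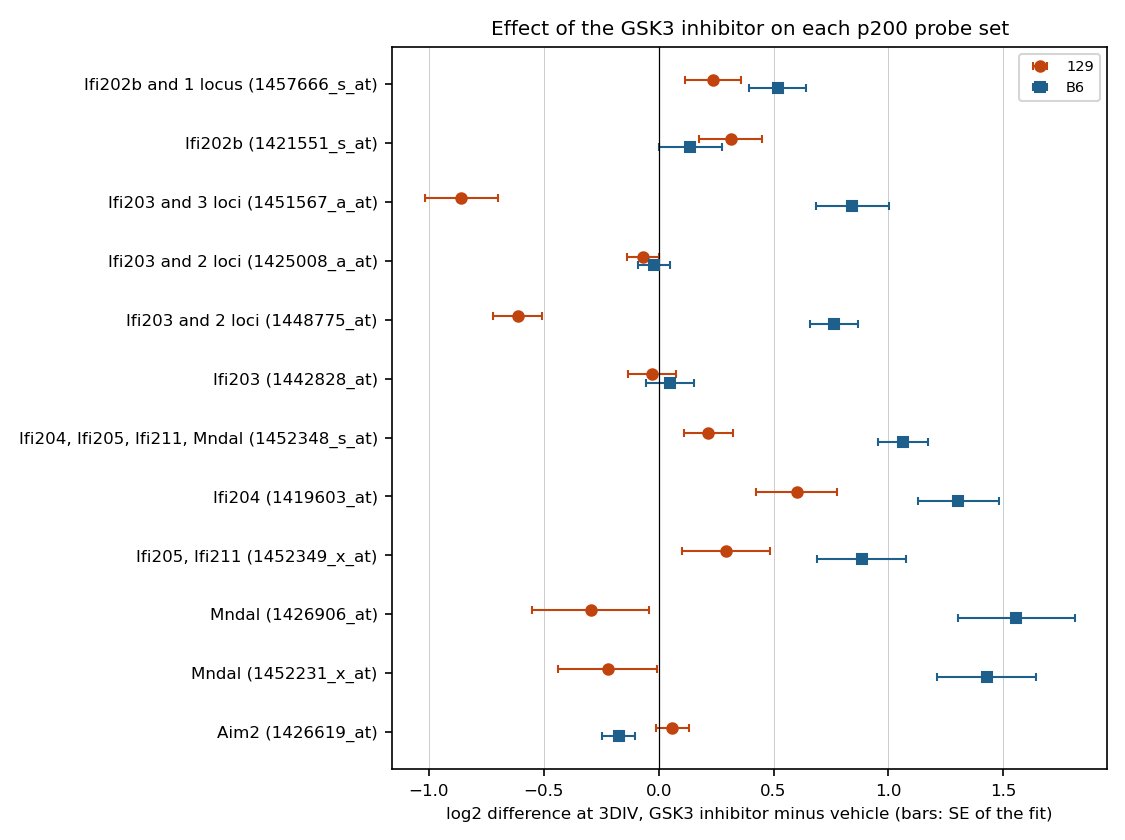
Log2 difference between explants at 3DIV with GSK3 inhibitor and with vehicle, for the 12 probe sets in 129 and in B6, with bars for the SE of the limma fit. In B6 the differences reach 1.56 for Mndal, whereas in 129 Ifi203 was lower, at -0.86 and -0.61.

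The difference between the strains in the effect of the inhibitor holds the strain difference at 3DIV with its sign turned, so it too is a description. The fit called it for 5 of the 12 probe sets, all of them more negative in 129, beside 1.35% of all probe sets, 0.389% more positive and 0.966% more negative. As a log2 difference of the effects, 129 minus B6, it was -1.85 (SE 0.36) for Mndal at 1426906_at and -1.65 (SE 0.30) at 1452231_x_at. For Ifi203 it was -1.70 (SE 0.22) at 1451567_a_at and -1.38 (SE 0.15) at 1448775_at, and for the shared probe set 1452348_s_at it was -0.85 (SE 0.15). Both Ifi203 calls were made without any 1 of the 12 arrays, which was not so for the other 3 probe sets. The count was 3 without 129 3DIV replicate 1, and 2 without 129 3DIV replicate 2, B6 3DIV replicate 1, 129 3DIV GSK3 inhibitor replicate 1 or 2, or B6 3DIV GSK3 inhibitor replicate 2. For Ifi204 the difference was -0.70 (95% interval -1.25 to -0.15) and for 1452349_x_at it was -0.59 (-1.19 to 0.01).

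Other genes of the pathways in which p200 proteins act were counted for comparison. The lists of this and the next paragraph were chosen with earlier results of these data known. Their counts and p-values are therefore a description too. With the inhibitor, 10.9% of all probe sets differed between the strains, 6.01% higher and 4.88% lower in 129. Of 10 measured inflammasome genes, Pycard and Casp1 were lower in 129 than in B6 with the inhibitor (log2 difference -0.57, adjusted p = 0.0264, and -0.93, adjusted p = 0.0026) and none was higher, with a median of -0.05 against 0.01 over all probe sets. In B6, 3 of these 10 genes were lower with the inhibitor and none was higher, beside 9.18% and 9.42% of all probe sets. Pycard had a log2 difference of -1.20 there (SE 0.14, limma adjusted p = 3.49e-04). Among 14 genes of cytosolic DNA sensing, 2 were higher and 3 lower in 129 with the inhibitor. Of these, Trim30a, which in mouse also restrains inflammatory signalling, had the widest difference (-1.80, SE 0.16, adjusted p = 3.68e-05), followed by the nucleic acid sensor Zbp1 (-0.68, adjusted p = 0.0224). Of 16 genes of interferon receptors and signalling, 2 were higher in 129 with the inhibitor and none was lower. They were the transcription factors Irf1 (0.35, limma adjusted p = 0.013) and Irf2 (0.31, limma adjusted p = 0.0141). Beside them stand 6.01% higher and 4.88% lower over all probe sets. In both directions together the share called was close to the 10.9% of all probe sets.

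Of 32 interferon-stimulated genes outside the cluster, 31 were higher after damage in 129 and 30 in B6, with median log2 differences of 3.79 and 3.21, beside 14.7% and 14.9% of all probe sets. With the inhibitor 3 were higher and 8 lower in 129 than in B6, with a median of -0.10, beside 6.01% and 4.88% of all probe sets. Mx2 (1.15, SE 0.10, adjusted p = 2.98e-05) and Gbp3 (1.20, SE 0.10, adjusted p = 3.29e-05) were on the side of Ifi202b. The chemokine gene Cxcl10 (-2.49, SE 0.25, adjusted p = 9.57e-05) and Xaf1 (-1.97, SE 0.16, adjusted p = 1.93e-05) were on the side of Ifi204. In B6, 14 of the 32 were higher and 1 was lower with the inhibitor than with vehicle, beside 9.42% and 9.18% of all probe sets. In 129, 2 were higher and 4 lower, beside 5.87% and 6.38%. The effect of the inhibitor differed between the strains for 5 of the 32, all more negative in 129, beside 0.966% of all probe sets, among them Cxcl10 (-1.77, SE 0.36, adjusted p = 0.0399) and Irgm1 (-1.0, SE 0.14, adjusted p = 0.00912). Of 4 measured interferon genes, Ifnb1 was higher with the inhibitor in B6 (log2 difference 0.59, SE 0.13, limma adjusted p = 0.0084). No other call was made for them in the 9 comparisons. Ifnb1 in B6 had 4.82 and 5.16 with the inhibitor, against 4.50 and 4.29 with vehicle. These values lie below the array medians, where a low level cannot be told from background.

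Neighbouring genes on either side of the cluster did not show strain differences as wide as those of Ifi202b, Ifi204 and Mndal in explants. The 5 measured genes before it, from Apcs to Cadm3, and the 5 after it, from Mptx1 to Kmo, differed by -0.49 to 0.37 between the strains in the 3 states. Of these neighbours, Apcs (5.09), Olfr16 (4.87), Fcer1a (3.25), Mptx1 (3.10) and Kmo (4.53) had mean levels below the array medians. A low level cannot be told from background, so nothing is read from their small differences. The other neighbours had means from 8.58 (Fmn2) to 10.62 (Ackr1). In normal retina, Rgs7 (0.31, limma adjusted p = 0.0193) passed the limit. At 3DIV, Ackr1 (-0.49, adjusted p = 0.00264) and Fh1 (0.37, adjusted p = 0.00422) passed it. With the inhibitor, Fmn2 (-0.34, adjusted p = 0.0355), Rgs7 (0.27, adjusted p = 0.0353) and Fh1 (0.27, adjusted p = 0.032) did so. Inside the cluster, Ifi207 and Ifi209 are not among the 7. Their log2 differences with the inhibitor were -1.11 (SE 0.22, 1457035_at) and -0.64 (SE 0.15, 1435330_at). The second probe set of Ifi209, 1435331_at, had -0.14 (SE 0.11). Ifi213, also not among the 7, had -0.06 in normal retina, -0.39 at 3DIV (limma, adjusted p = 0.0187) and -0.28 with the inhibitor at 1437636_at. Its second probe set, 1444405_at, lay between 2.45 and 2.83 on all arrays. Aim2 and Ifi203 at 1442828_at differed by -0.15 to 0.40 in the 3 states.

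**Figure D4:**
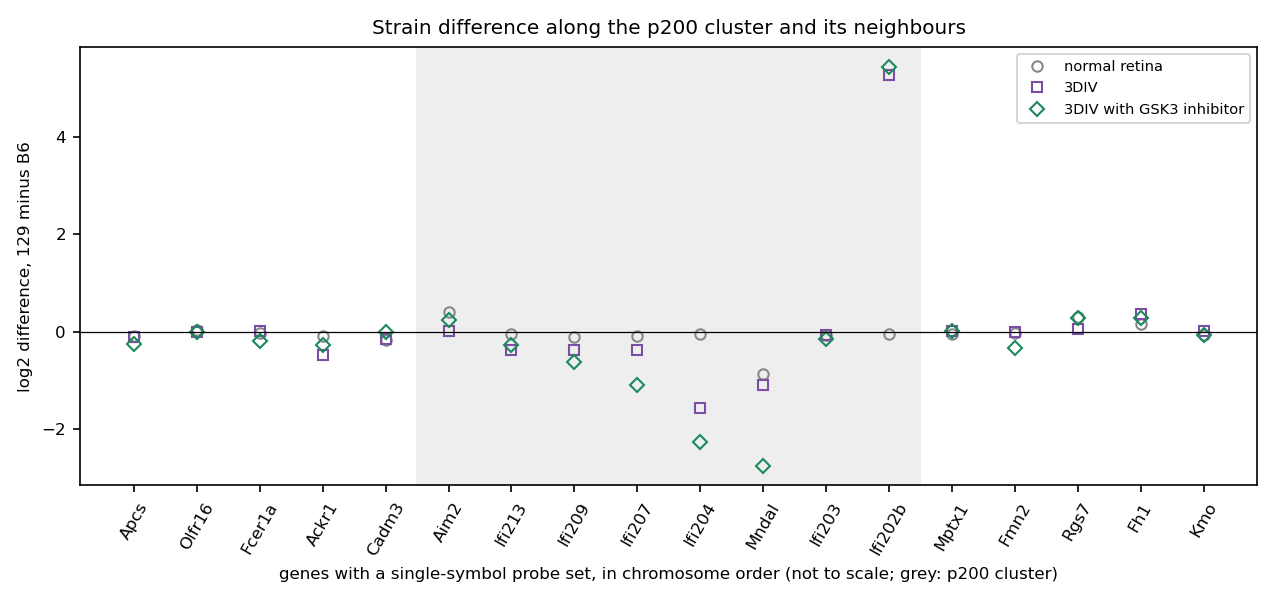
Log2 difference between the strains, 129 minus B6, for genes in the order in which they stand on chromosome 1, with the p200 cluster between 5 neighbours on each side, in 3 states. The neighbours lie between -0.49 and 0.37, whereas Ifi202b lies at 5.26 at 3DIV and 5.44 with the inhibitor. Apcs, Olfr16, Fcer1a, Mptx1 and Kmo had mean levels below the array medians. Of the cluster genes, Aim2, Ifi213 and Ifi203 at 1442828_at lie between -0.39 and 0.40.

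Likeness of the members over the 12 arrays, which share the 6 groups, is given as a description. The 2 probe sets of Ifi202b correlated with each other (Pearson r = 0.9967), and 1421551_s_at correlated with Ifi204 at r = -0.10, whereas Ifi204 correlated with 1452349_x_at at r = 0.9703 and with Mndal at 1452231_x_at at r = 0.9366. The genes most like Ifi202b over all arrays were Fscn1 (r = 0.9947), Ifi44l (r = 0.9944) and Pde2a (r = 0.9861). Those most like Ifi204 were Phlda3 (r = 0.9715), Afg3l2 (r = 0.9688) and D630033O11Rik (r = 0.9668), and those most like the probe set of Ifi211 and Ifi205 were Trim30d (r = 0.981), Ms4a6b (r = 0.9781) and Tnfrsf1b (r = 0.9736). For Mndal they were Fzd6 (r = 0.9663), Ccl5 (r = 0.9625) and Adamts4 (r = 0.9603). The Ifi203 probe set 1451567_a_at, picked after its values had been seen, was most like Btc (r = 0.9816), Ddx60 (r = 0.9808) and Osbpl6 (r = 0.9748). Aim2 and the Ifi203 probe set 1442828_at spanned 0.46 and 0.37 on the log2 scale, and the genes most like them were Lrrc4c (r = 0.9319) and Prss44 (r = 0.8841).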

How the data were processed

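RNA of whole neural retina was hybridised to 12 one-colour Affymetrix arrays, 2 for each of 6 groups taken from the labels. The deposited values were linear intensities that the authors had made with RMA. Its version was not given in the sources used here. RMA corrects background, brings arrays to 1 distribution and gives 1 intensity per probe set, without a detection call. Intensities were taken to log2, and 64 control probe sets of 45101 were left out. The probe annotation gave 1 symbol to 34945 probe sets, several to 932 and none to 9160. All arrays were fitted together in limma 3.58.1 (R 4.3.3), with 1 coefficient per group and eBayes without trend and not robust (4.69 prior and 6 residual degrees of freedom). P-values were adjusted with Benjamini-Hochberg over 45037 probe sets within each of 9 comparisons, at a limit of 0.05. The fit was checked on simulated data beforehand. Where several probe sets measured a listed gene, the one with the highest mean was used.

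Members and gene lists were chosen with earlier results of these data known. P-values are given for genes outside the 7 only, and those of listed genes are a description and not an independent test. The genes named were every member probe set, other measured genes of the cluster, its 5 nearest measured neighbours on each side, the 3 genes most like each member, and called genes of the lists for inflammasome, DNA sensing, interferon and immune cells. Alternatives were the replicate number as a block, cyclic loess, median centring, eBayes with trend and robust, the compared arrays alone, probe sets above the median level, probe sets with 1 symbol, and each array left out in turn. Only 2 arrays in a group limit the precision. Same-numbered arrays did not deviate together, with correlations of -0.11 to 0.04 over 15 pairs of groups, so the numbers were not taken to pair them. Promoters were RefSeq sequences of GRCm38.p6. Plots were made in Python 3.11.15 with matplotlib 3.10.9.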

Additional observations from a re-analysis of the deposited data

Results flagged for a closer look

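For 7 of the 12 probe sets, the change after damage differed between the strains in the interaction of the limma fit, beside 2.58% of all probe sets. The genes were chosen with these values in view, so they are a description. The count was 5 to 7 with 1 array left out, and the calls lost were those of Ifi204 and of Ifi203 at 1448775_at. As a log2 difference of the changes, 129 minus B6, it was 6.54 for Ifi202b at 1457666_s_at and 5.31 at 1421551_s_at. Ifi203 had the same direction at 1451567_a_at, with 1.80, and at 1448775_at, with 0.79, but -0.004 at 1442828_at. Its probe set 1425008_a_at lay between 2.78 and 3.08 on all arrays. At 1448775_at the strains differed in normal retina, with 3.76 and 3.88 in 129, against 4.77 and 4.80 in B6. At 3DIV they were close there, with 6.66 and 6.58 in 129 and 6.89 and 6.67 in B6. The direction was opposite to that of Ifi202b for 1452348_s_at, shared by Mndal, Ifi211, Ifi205 and Ifi204, with -2.87. It was also opposite for 1452349_x_at of Ifi211 and Ifi205, with -2.68, and for Ifi204, with -1.52.

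The effect of the GSK3 inhibitor differed between the strains, in the same kind of fit, for 5 probe sets, beside 1.35% of all probe sets. This contrast shares the 4 vehicle arrays with the one above and is likewise a description. The count was 2 to 5 with 1 array left out, and the calls lost were those of Mndal at both probe sets and of 1452348_s_at. On the log2 scale, 129 minus B6, the difference was -1.85 for Mndal at 1426906_at and -1.65 at 1452231_x_at. It was -1.70 for Ifi203 at 1451567_a_at, -1.38 for Ifi203 at 1448775_at and -0.85 for the shared probe set 1452348_s_at. At 1451567_a_at and 1448775_at, both 129 arrays with inhibitor lay below both 129 vehicle arrays. Both B6 arrays with inhibitor lay above both B6 vehicle arrays there. At another Ifi203 probe set, 1442828_at, the difference of the effects was -0.08.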

How the results depend on the processing

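No difference of the 12 probe sets that was called or exceeded its SE changed direction under these alternatives. Of the verdicts for single probe sets, 424 kept their side of the limit under settings other than a left-out array and 7 lost it, while with arrays left out in turn 968 kept it, 63 lost it and 1 gained it. With the replicate number as a block, the count of called probe sets was 3, 8 and 8 for the strain difference in normal retina, at 3DIV and with the inhibitor, 9 and 8 for the change after damage in 129 and B6, 2 and 8 for the effect of the inhibitor in 129 and B6, and 7 and 4 for the differences between strains in the change after damage and in the effect of the inhibitor. The block ended the call of Ifi204 for the inhibitor in 129, of Aim2 after damage in B6 and of Mndal at 1426906_at for the strain difference of the inhibitor effect. The call of Ifi204 was also not made with cyclic loess. Among probe sets above the median level the count was 0 in all 9 comparisons, since 1 of the 12 probe sets, 1442828_at, was left. With the 6 probe sets of 1 symbol, the count was 4 for the strain difference at 3DIV, 4 for that with the inhibitor, 4 for the change after damage in 129 and 4 in B6, 3 for the effect of the inhibitor in B6 and 1 in 129, and 2 for each difference between strains in these changes. With 1 array left out, the count was 2 to 3 for the strain difference in normal retina, 7 to 8 at 3DIV and 8 to 8 with the inhibitor, 7 to 9 for the change after damage in either strain, 7 to 8 for the inhibitor in B6 and 1 to 3 in 129, 5 to 7 for the difference between strains in the change after damage and 2 to 5 for that in the effect of the inhibitor.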
